A study of Mus musculus with 96 samples.

Results

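Microglia taken from the hippocampus and from the brain hemisphere of the same old mouse were compared after surgery. The comparison used the 32 libraries, of 96 in the series, whose titles give old age and surgery: 16 from hippocampus and 16 from hemisphere, from 16 animals. Of these animals, 7 were sampled at the 6 h time point and 9 at 48 h. All mice were WT and 20 to 22 months old. Control mice of the same age (16 animals), and young mice of 3 to 5 months with surgery (8 animals) or as controls (8 animals), served as other animals in which the same region difference was read. The series title calls the operation abdominal surgery, and what the controls underwent is not given in the labels. Each library came from 1000 sorted cells with CD11b and Fcrls on their surface and without Ly6C. Whether the hemisphere sample still held the hippocampus is also not given. Each hippocampus library was paired with the hemisphere library that carries the same sort number.

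Microglia are the resident macrophages of the brain, and their resting gene programme differs between brain regions. They present peptides to T cells through major histocompatibility complex (MHC) molecules: class I molecules with B2m on most cells, and class II molecules, paired chains escorted by the invariant chain Cd74, on antigen-presenting cells. Class II genes share a transcriptional control through the transactivator Ciita, and class I genes and many antiviral genes respond to interferons. In the resting brain class II levels on microglia are low, and they are known to increase with age.

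The single gene that passed the test belongs to antigen presentation. H2-Ab1, the beta chain of the class II molecule I-A (gene at chr17:34257689-34269419, plus strand, mm10), was lower in hippocampus than in hemisphere in 16 of 16 animals. At 6 h its lowest, median and highest levels were 3.81, 11.5 and 13.4 CPM in hippocampus, against 8.06, 19.3 and 35.4 CPM in hemisphere. CPM is a gene's share of the estimated counts of its library, scaled to a common total with TMM factors. At 48 h H2-Ab1 stood at 3.66, 9.33 and 26.3 CPM in hippocampus, against 8.33, 28.9 and 87.2 CPM in hemisphere. The ranges of the regions overlapped at both times, while each animal's hippocampus value lay under its hemisphere value. The paired difference was −1.24 ± 0.20 on the log2 scale (SE; hippocampus over hemisphere), with a Benjamini-Hochberg adjusted p (BH) of 0.0388 in edgeR's quasi-likelihood test with the animal as a block. H2-Ab1 was the single call among 11745 genes tested (percent called 0.00851%), and 0 genes were called higher in hippocampus. At an unadjusted p under 0.05 there were 608 genes (5.18%), 268 of them higher (2.28%) and 340 lower (2.89%). The call was close to the threshold: leaving out 1 animal at a time gave log2 values of −1.31 to −1.11 and BH of 0.0255 to 0.13, with the call kept in 6 of 16 cases. Leaving out the 4 animals with high choroid plexus markers gave −1.27 with a BH of 0.559.

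The other class II genes had lower values in hippocampus too, none past the test. H2-Aa, the alpha chain of I-A, was lower in 15 of 16 animals. Its levels at 48 h were 0.997, 5.78 and 11.95 CPM in hippocampus, against 5.74, 17.4 and 33.1 CPM in hemisphere. The log2 difference over both times was −1.17 ± 0.21 (BH 0.0746). Cd74, the invariant chain, averaged 11.3 ± 4.62 CPM in hippocampus and 24.8 ± 15.7 CPM in hemisphere (SD, n = 16 each; log2 −0.995 ± 0.21, BH 0.21), and was lower in 14 of 16 animals. H2-Eb1, a beta chain of the second class II molecule I-E, averaged 4.74 ± 3.42 CPM in hippocampus and 11.7 ± 7.64 CPM in hemisphere (SD, n = 16 each; log2 −1.31 ± 0.29, BH 0.21). It rested on few reads, with a mean estimated count of 13.6 per hippocampus library and 30.6 per hemisphere library. H2-Eb1 was lower in 14 of 16 animals. Ciita itself was under the filter on low counts.

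Summed over H2-Aa, H2-Ab1, H2-Eb1 and Cd74, a grouping chosen after the values were seen, the level was lower in hippocampus in 7 of 7 animals at 6 h and 9 of 9 at 48 h. At 6 h the sum was 29.0 ± 8.29 CPM in hippocampus and 54.8 ± 25.4 CPM in hemisphere (SD, n = 7 each). At 48 h it was 36.1 ± 20.3 CPM in hippocampus and 97.1 ± 57.4 CPM in hemisphere (SD, n = 9 each). A mouse's hippocampus held between 9.97% and 84.5% of its hemisphere's level, with a median of 48.5%. The smallest ratio was that of 48 h replicate 2, whose hemisphere library held the highest sum, 217.7 CPM. In sorted bulk samples such as these, fewer cells with a transcript and less transcript per cell cannot be told apart.

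**Figure D1:**
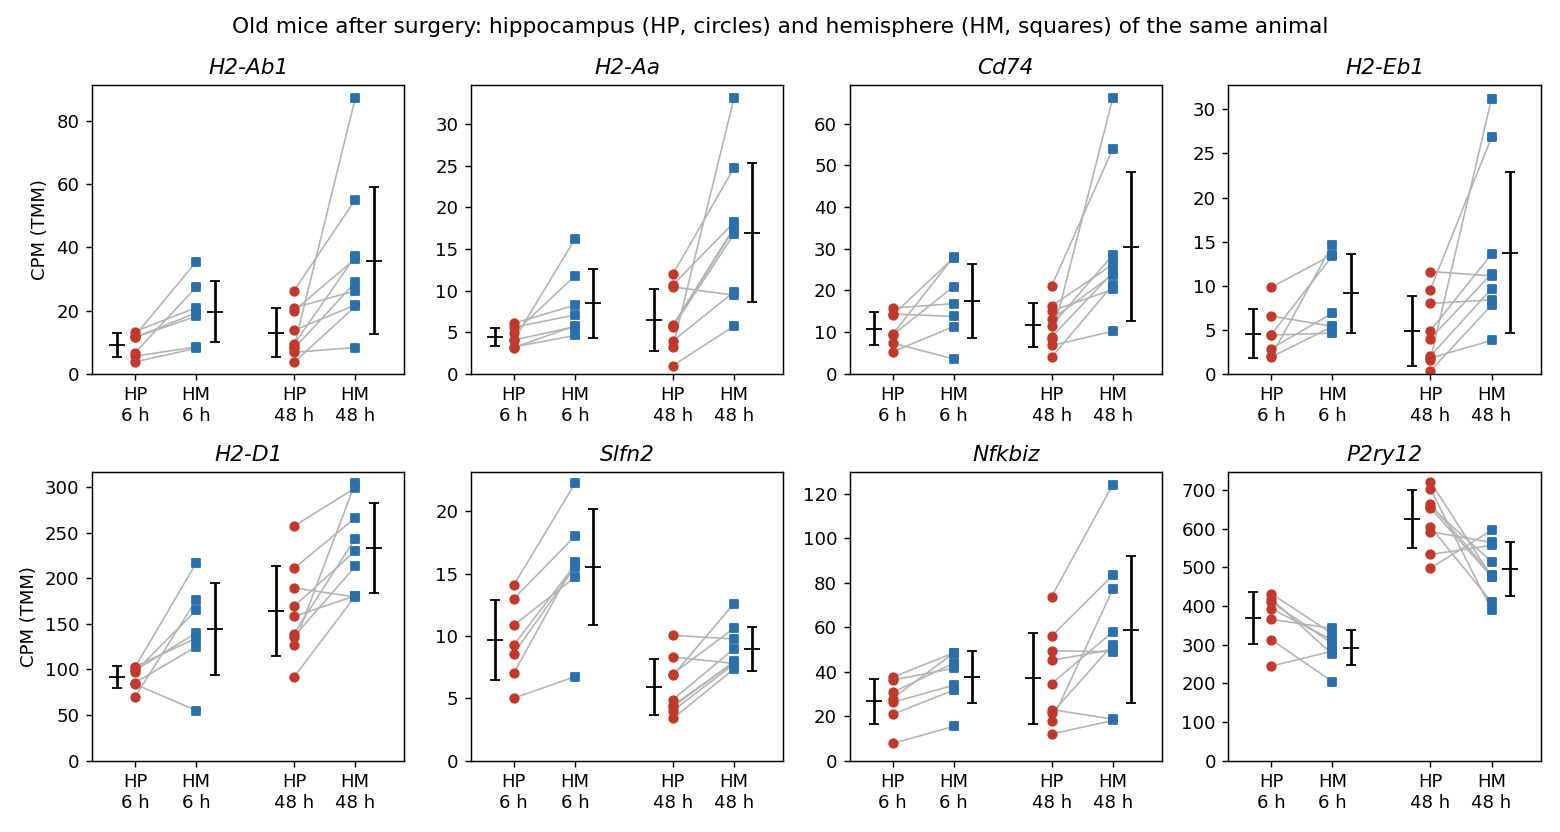
Levels (CPM, linear axes from 0) of 8 genes in hippocampus (HP, circles, left) and hemisphere (HM, squares, right) of old mice at 6 h and 48 h after surgery. A grey line joins the libraries of 1 animal, and black bars give the mean ± SD (n = 7 at 6 h, 9 at 48 h). H2-Ab1 is lower in hippocampus in 16 of 16 animals, and P2ry12 is higher in 13 of 16.

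Promoters of genes that carried the lower values follow, to set the class II, class I and interferon-stimulated genes side by side. Each line is 300 bases from RefSeq (build GRCm38.p6, the sequence of mm10), 5′ to 3′ on the gene's own strand, running from 250 bases before the start of the gene to 50 after it. The windows are chr17:34287774-34288073 (minus strand), chr17:34305617-34305916 (plus), chr17:35262844-35263143 (plus) and chr5:120907476-120907775 (minus). Capitals mark CTGATTGG on either strand in the first 3 sequences. These letters are the core of the Y box of class II promoters. In H2-D1 the match is on the other strand only, and was not identified as a Y box. In the fourth sequence capitals mark GAAA, any 2 bases and GAAA again, the core of the interferon-stimulated response element.
H2-Aa: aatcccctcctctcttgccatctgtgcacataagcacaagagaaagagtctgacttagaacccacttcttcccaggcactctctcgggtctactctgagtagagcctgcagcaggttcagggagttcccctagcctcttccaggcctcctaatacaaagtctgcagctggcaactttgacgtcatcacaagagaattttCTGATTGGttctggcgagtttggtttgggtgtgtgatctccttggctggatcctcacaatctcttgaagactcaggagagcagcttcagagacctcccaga
H2-Eb1: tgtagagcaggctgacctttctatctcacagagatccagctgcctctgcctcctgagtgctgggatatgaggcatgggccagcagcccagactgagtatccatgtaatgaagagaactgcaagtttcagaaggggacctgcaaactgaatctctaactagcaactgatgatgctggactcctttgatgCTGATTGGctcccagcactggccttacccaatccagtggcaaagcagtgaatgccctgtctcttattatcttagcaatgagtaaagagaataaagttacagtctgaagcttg
H2-D1: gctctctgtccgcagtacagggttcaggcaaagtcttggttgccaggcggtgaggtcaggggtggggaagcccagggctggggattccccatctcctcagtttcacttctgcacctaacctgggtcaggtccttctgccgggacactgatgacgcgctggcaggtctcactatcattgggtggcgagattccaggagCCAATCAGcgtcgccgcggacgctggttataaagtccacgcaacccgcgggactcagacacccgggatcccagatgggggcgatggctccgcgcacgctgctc
Oas1a: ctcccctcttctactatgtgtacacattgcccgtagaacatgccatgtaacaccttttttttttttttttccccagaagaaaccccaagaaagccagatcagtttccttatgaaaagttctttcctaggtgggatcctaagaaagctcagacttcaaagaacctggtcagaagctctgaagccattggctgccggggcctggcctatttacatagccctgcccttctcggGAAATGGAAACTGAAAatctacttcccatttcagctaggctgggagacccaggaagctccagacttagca
The letters CTGATTGG, searched on both strands, were found in 9 of the 15 genes of the MHC and antigen presentation list that have an entry in the promoter table (60%), against 1166 of 27025 promoters in all (4.31%). The interferon element, searched on both strands, was found in 11 of the 17 interferon-stimulated genes with an entry (64.7%), against 943 of 27025 (3.49%). The 2 matches in Oas1a overlap. A match describes the letters of the window and no binding was measured here. H2-Ab1 has no entry in the table used.

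No class I gene of the list passed the test. H2-D1, a classical class I heavy chain, was lower in hippocampus in 14 of 16 animals. It stood at 69.9, 97.4 and 103 CPM (lowest, median, highest) in hippocampus at 6 h, against 54.9, 140.0 and 217 CPM in hemisphere. At 48 h it stood at 91.7, 158 and 257 CPM in hippocampus, against 179, 230 and 304 CPM in hemisphere. Its log2 difference was −0.55 ± 0.12 (BH 0.21). H2-K1, the other classical heavy chain, averaged 139 ± 67.9 CPM in hippocampus and 174 ± 55.6 CPM in hemisphere (SD, n = 16 each; log2 −0.40 ± 0.11, BH 0.495). The non-classical H2-Q6 and H2-Q7 were at −0.91 ± 0.21 (BH 0.21) and −0.59 ± 0.16 (BH 0.438). The non-classical H2-T23 was at 0.02 ± 0.11 and higher in hippocampus in 9 of 16 animals. These class I genes resemble one another in sequence, to differing degrees, so how the authors' counting split reads among them is uncertain. B2m, the shared light chain, was at −0.16 ± 0.07 (lower in 14 of 16 animals, BH 0.888), and H2-DMa and H2-DMb1, which load peptide onto class II, were at −0.04 ± 0.08 and 0.02 ± 0.11.

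Over the list of MHC and antigen presentation genes, 19 of 20 passed the filter, 15 had negative values and their median was −0.34, beside a median of 0.00 over all genes tested. An unadjusted p under 0.05 was reached by 10 of the 19, each with a negative value, where 2.89% of all genes tested did so with a negative value.

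Markers of other cells were read beside these values. Class II molecules are abundant on B cells and on macrophages of the brain's borders. The 10 B cell markers summed to a median of 92.2 CPM in hippocampus and 83.4 CPM in hemisphere, higher in hippocampus in 12 of 16 animals, and most of that sum was Ighm. The 9 others summed to 5.43 to 33.5 CPM in hippocampus and 9.61 to 82.96 CPM in hemisphere, and were lower in hippocampus in 8 of 16 animals. The hemisphere libraries of 48 h replicates 1 and 2 stood apart, with B cell sums of 255 and 223 CPM, and held the highest H2-Ab1 of all (55.04 and 87.2 CPM). Without these 2 animals H2-Ab1 was at −1.11 with a BH of 0.0861. Among B cell markers, Cd79a had a median of 0 CPM in hemisphere, and Igkc a median of 0 CPM in both regions. The 13 border macrophage markers were dominated by Stab1 (median 179 CPM in hippocampus, 152 CPM in hemisphere). The other 12 summed to 3.27 to 16.6 CPM in hippocampus and 6.73 to 44.7 CPM in hemisphere, and were lower in hippocampus in 12 of 16 animals. Of them Lyve1 and Folr2 had a median of 0 CPM in both regions, and Mrc1, the mannose receptor, had medians of 0.839 CPM in hippocampus and 1.72 CPM in hemisphere, under the filter. Siglec1 was above 0 in all 32 libraries (medians 3.77 and 3.76 CPM) and lower in hippocampus in 8 of 16 animals. Ms4a7 (medians 1.21 CPM in hippocampus and 2.49 CPM in hemisphere) was lower in 13 of 16. Monocyte markers summed to medians of 46.1 CPM in hippocampus and 51.1 CPM in hemisphere. The part of these cells in the class II values was not tested.

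**Figure D2:**
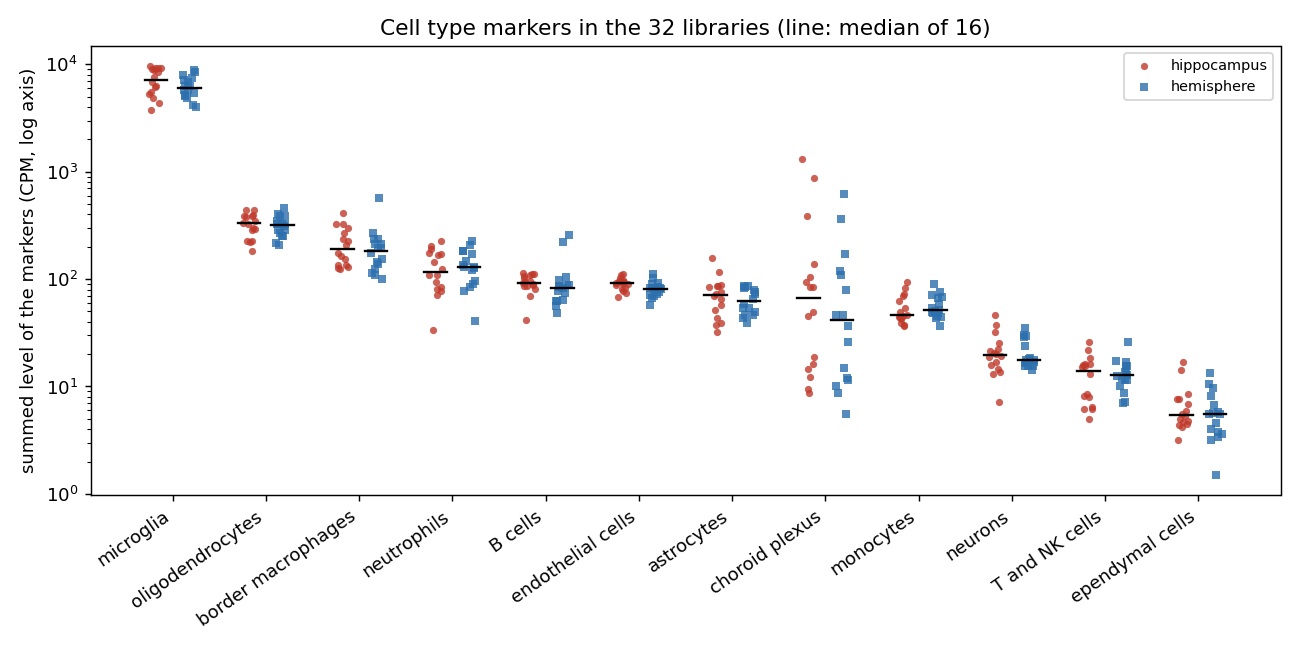
Summed level of cell type markers (CPM, log axis) in each of the 16 hippocampus libraries (circles, left) and 16 hemisphere libraries (squares, right), for 12 of the 17 marker lists, with the median as a line. Microglia markers stand highest (medians 7176 CPM in hippocampus and 6045 CPM in hemisphere), 2 hemisphere libraries stand out in B cell markers, and choroid plexus sums spread from 5.6 to 1320.1 CPM.

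Total estimated counts ran from 2261930 to 3635847, and 53.05% to 81.2% of each total lay in 15 repeat-like or ribosomal gene models, which leaves 469723 to 1406165 counts for the other genes. Counts outside these models averaged 734582 in hippocampus and 656059 in hemisphere (higher in 11 of 16 animals; exact paired sign-flip test, two-sided, p = 0.215). The share of Malat1, a nuclear RNA, among the counts outside these models was 0.446 ± 0.0796% in hippocampus and 0.492 ± 0.087% in hemisphere (SD, n = 16 each; exact sign-flip p = 0.0388, and 0.194 with Benjamini-Hochberg adjustment over the 5 measures tested), higher in hippocampus in 4 of 16 animals. The 10 microglia markers were above 0 in all 32 libraries. Oligodendrocyte markers summed to medians of 330 CPM in hippocampus and 318 CPM in hemisphere, mostly Trf (292 CPM in hippocampus, 275 CPM in hemisphere), while Mog had a median of 0 CPM in both regions. Mbp, Mag, Cnp and Aspa were above 0 in all 32 libraries, and lower in hippocampus in 9, 12, 7 and 9 of 16 animals. Neuron markers summed to medians of 19.5 CPM in hippocampus and 17.7 CPM in hemisphere, and endothelial markers to 91.6 CPM in hippocampus and 81.7 CPM in hemisphere, mostly Bsg. In 3 libraries (6 h hippocampus replicates 5 and 6 and hemisphere replicate 6) low estimated counts did not run in steps of 1, with values of 1 making up 5.02% to 24.7% of all values from 1 to 3. Without these 2 animals H2-Ab1 was at −1.23 with a BH of 0.0918, and 0 genes were called.

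Interferon-stimulated genes had the lowest median of the 18 programme lists. Of 24 genes 17 passed the filter, 16 had negative values, the median was −0.48, and 8 reached an unadjusted p under 0.05, each lower in hippocampus (2.89% over all genes tested). None passed the test after adjustment. Slfn2, a schlafen protein that restrains immune cell proliferation, came nearest. It stood at 5.00, 9.26 and 14.1 CPM in hippocampus at 6 h, against 6.73, 15.7 and 22.2 CPM in hemisphere, and at 3.38, 4.89 and 10.04 CPM in hippocampus at 48 h, against 7.34, 7.95 and 12.6 CPM in hemisphere. Slfn2 was lower in 14 of 16 animals (log2 −0.66 ± 0.13, BH 0.0984). Oas1a, an oligoadenylate synthetase that senses double-stranded RNA, averaged 2.57 ± 2.17 CPM in hippocampus and 6.04 ± 3.23 CPM in hemisphere (SD, n = 16 each). Oas1a was lower in 15 of 16 animals (log2 −1.29 ± 0.26, BH 0.145) and rested on a mean of 7.12 counts per hippocampus library and 15.9 per hemisphere library. Ifitm3, which blocks viral entry, was at −1.05 ± 0.26 (BH 0.345), and Oasl2, a relative of Oas1a, at −0.89 ± 0.26 (BH 0.507). Ifit3, an antiviral RNA-binding protein, was at −0.51 ± 0.27. Slfn2, Oas1a, Ifitm3 and Oasl2 belong to gene families with close copies, and were named after their values were seen.

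The other genes chosen at the low end did not pass the test. Sdc3, a cell surface heparan sulfate proteoglycan, averaged 10.5 ± 5.15 CPM in hippocampus and 22.1 ± 11.5 CPM in hemisphere (SD, n = 16 each; log2 −0.99 ± 0.20, BH 0.145), lower in 14 of 16 animals. Nfkbiz, a nuclear inhibitor of kappa B protein that switches on secondary inflammatory genes, averaged 32.4 ± 17.1 CPM in hippocampus and 49.5 ± 27.4 CPM in hemisphere (SD, n = 16 each; log2 −0.60 ± 0.13, BH 0.21). Slamf9, a SLAM family receptor of myeloid cells, was at −0.49 ± 0.12 (BH 0.345), Ccl3, a chemokine, at −0.46 ± 0.12 (BH 0.429), and Lyz2, the macrophage lysozyme, at −0.40 ± 0.11 (BH 0.429). Nfkbiz, Slamf9, Ccl3 and Lyz2 were each lower in hippocampus in 14 of 16 animals. The 3 other genes of the low end were Polr2a, the largest subunit of RNA polymerase II (−0.58 ± 0.14), Wdr26, a subunit of a ubiquitin ligase complex (−0.69 ± 0.19), and Iqcn (−0.77 ± 0.19), with BH of 0.345 to 0.438.

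Lists of quick stimulus responses had the same sign. Of 20 immediate early genes tested, 19 had negative values (median −0.28) and 8 were lower at an unadjusted p under 0.05 (2.89% of all genes tested). Junb, an AP-1 subunit, averaged 469 ± 248 CPM in hippocampus and 563 ± 232 CPM in hemisphere (SD, n = 16 each; log2 −0.31 ± 0.10), and Egr1 was at −0.32 ± 0.12. Of 20 cytokine and NF-kB genes tested, 16 had negative values (median −0.22) and 6 were lower at an unadjusted p under 0.05 (2.89% of all genes tested), among them Ccl12, a monocyte chemoattractant (−0.48 ± 0.14, lower in 15 of 16 animals), and Nfkbia, the feedback inhibitor of NF-kB (−0.32 ± 0.09, lower in 14 of 16). BH was between 0.21 and 0.946 for those 14 genes.

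The high end included genes of resting microglia, none past the test. P2ry12, the ADP receptor that marks homeostatic microglia, stood at 244, 393 and 432 CPM in hippocampus at 6 h, against 204, 303 and 342 CPM in hemisphere. At 48 h it stood at 498, 654 and 721 CPM in hippocampus, against 390.3, 481 and 596 CPM in hemisphere. P2ry12 was higher in hippocampus in 13 of 16 animals, with a log2 difference of 0.33 ± 0.09 (BH 0.429). Of 23 homeostatic genes tested, 19 had positive values (median 0.14). At an unadjusted p under 0.05, 7 were higher, where 2.28% of all genes tested were, and 1 was lower. The 7 included Sparc, a matricellular protein (0.20 ± 0.06, higher in 14 of 16 animals), Slc2a5, a fructose transporter (0.49 ± 0.16), Gpr34, a lysophosphatidylserine receptor (0.33 ± 0.11), and Fcrls (0.35 ± 0.12, higher in 13 of 16), whose protein was a sorting marker. Tmem119, another microglial marker, was at 0.13 ± 0.09 (BH 0.993). The summed microglia markers were higher in hippocampus in 11 of 16 animals.

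The other 11 genes chosen at the high end did not pass the test. Ergic2, a protein of transport between the endoplasmic reticulum and the Golgi, averaged 19.7 ± 5.21 CPM in hippocampus and 12.8 ± 5.59 CPM in hemisphere (SD, n = 16 each; log2 0.68 ± 0.18, BH 0.429), higher in 14 of 16 animals. Il6st, the shared signalling receptor of the interleukin-6 family, averaged 59.3 ± 32.7 CPM in hippocampus and 42.5 ± 19.5 CPM in hemisphere (SD, n = 16 each; log2 0.42 ± 0.11, BH 0.429). Usp22, a histone deubiquitinase, was at 0.58 ± 0.15, Vps4b, an ATPase of membrane scission, at 0.60 ± 0.17, Sf3a1, a splicing factor, at 0.69 ± 0.20, and Eif3c, a translation initiation factor, at 0.62 ± 0.19. Ccl6, a chemokine, Trim35, Rbbp4, a histone-binding protein, Upk1b, a tetraspanin, and Acss1, a mitochondrial acetate-activating enzyme, lay between 0.36 and 0.50. BH was between 0.429 and 0.599 for these 11 genes.

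**Figure D3:**
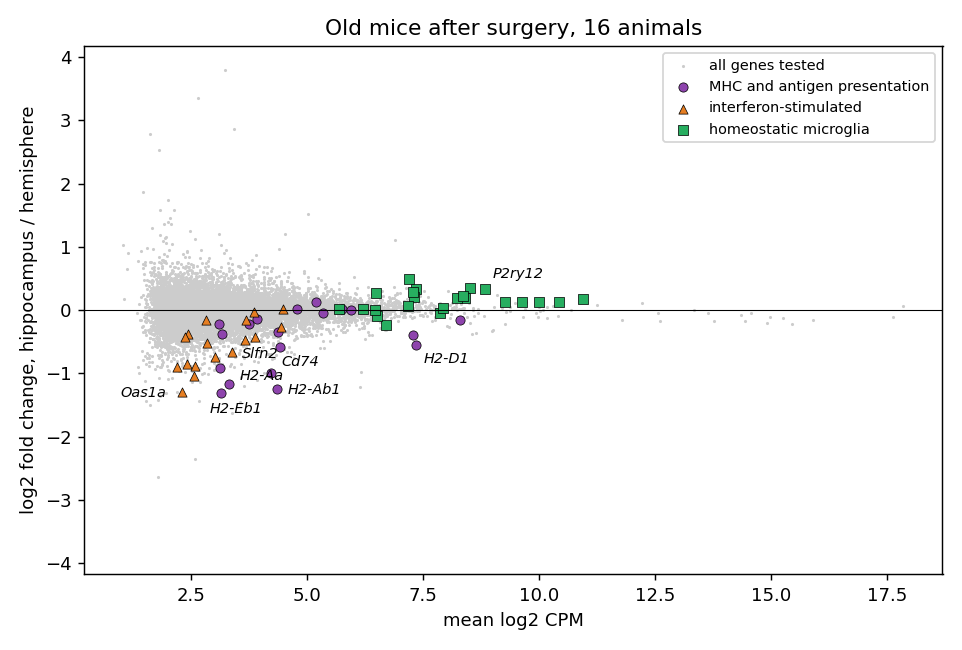
Log2 fold change of hippocampus over hemisphere (y) against the mean log2 CPM (x) for the 11745 genes tested in the 16 old mice after surgery, with 3 gene lists marked. Most MHC (circles) and interferon-stimulated genes (triangles) lie below 0, at −1.24 for H2-Ab1, and most homeostatic genes (squares) lie above 0, at 0.33 for P2ry12.

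Of 20 disease-associated microglia genes tested, 17 had negative values with a median of −0.12, 2 reached an unadjusted p under 0.05 with a lower value (2.89% of all genes tested) and 1 with a higher one (2.28%). Clec7a, the beta-glucan receptor of that programme, was at −0.78 ± 0.27 (BH 0.653, lower in 13 of 16 animals). Apoe was at −0.03 ± 0.18, Cst7 at −0.41 ± 0.34 and Spp1 at −0.30 ± 0.54. Of 14 glucocorticoid-induced genes tested, 3 were lower at an unadjusted p under 0.05 (2.89% of all genes tested) and 0 higher (2.28%). Their median was −0.12, with Fkbp5, a chaperone induced by the glucocorticoid receptor, at −0.23 ± 0.13, Tsc22d3 at −0.06 ± 0.13 and Ddit4 at 0.33 ± 0.24. Medians of lysosome and phagocytosis, complement and Fc receptor, oxidative phosphorylation, cell cycle and TGF-beta lists lay between −0.03 and 0.02. Ttr, made by the choroid plexus, was uneven: it averaged 163 ± 308 CPM in hippocampus and 74.9 ± 129 CPM in hemisphere (SD, n = 16 each; log2 1.11 ± 1.502), higher in 9 of 16 animals.

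The region difference was then read at each time. At 6 h, 0 of 11745 genes were called (percent called 0%). At an unadjusted p under 0.05 there were 819 (6.97%; 2.92% higher and 4.05% lower), and at 48 h 0 were called (percent called 0%), with 429 at an unadjusted p under 0.05 (3.65%; 1.89% higher and 1.76% lower). H2-Ab1 was at −1.04 ± 0.30 at 6 h and −1.40 ± 0.27 at 48 h. Cd74 was at −0.57 ± 0.30 at 6 h and −1.32 ± 0.27 at 48 h. The change of the region difference between times (48 h minus 6 h) was −0.36 ± 0.41 for H2-Ab1 and −0.74 ± 0.40 for Cd74, and 0 genes passed the test of it (percent called 0%; 602, or 5.13%, at an unadjusted p under 0.05, with 2.7% higher and 2.43% lower). The interferon-stimulated list had medians of −0.68 at 6 h and −0.53 at 48 h, and the MHC list −0.40 at 6 h and −0.33 at 48 h. In the MHC list 6 of 19 genes were under an unadjusted p of 0.05 at 6 h and 8 of 19 at 48 h, each with a negative value. The homeostatic list had medians of 0.01 at 6 h, with 9 of 23 genes negative, and 0.25 at 48 h, with 2 of 23 negative. Tmem119 was at −0.03 ± 0.13 at 6 h and 0.25 ± 0.12 at 48 h, while P2ry12 was at 0.33 ± 0.14 at 6 h and 0.34 ± 0.12 at 48 h. Ier5, an immediate early gene, was lower in hippocampus in 1 of 7 animals at 6 h and 9 of 9 at 48 h (difference −0.87 ± 0.23, BH 0.834).

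**Figure D4:**
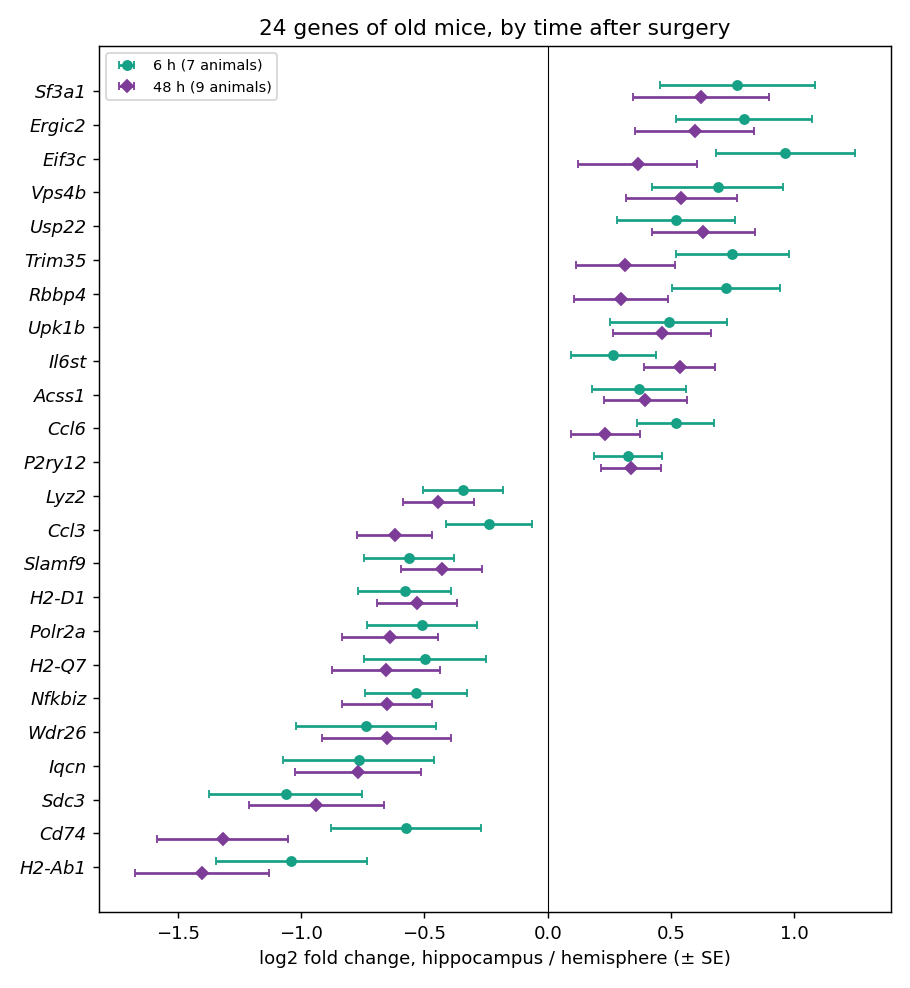
Log2 fold change of hippocampus over hemisphere (± SE) at 6 h (circles, 7 animals) and 48 h (diamonds, 9 animals) for the 12 genes of each sign chosen on both times together. H2-Ab1 lies at −1.04 at 6 h and −1.40 at 48 h, and Sf3a1 at 0.77 at 6 h and 0.62 at 48 h; the genes were chosen on these same animals.

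Old control mice gave the region difference in animals that did not choose these genes. Among 11654 genes tested there, 5 were called higher (0.0429%) and 6 lower (0.0515%) in hippocampus (percent called 0.0944%). The 5 were Upk1b, Tmem144, Fcrls, Cd164 and Gpr165, and the 6 were H2-Q6, Sp100, Axl, H2-Q7, Ifi27l2a and Slamf9. Of the 24 genes chosen in the surgery animals, 21 had the same sign in old controls and 11 an unadjusted p under 0.05 with that sign. Of all genes tested in the controls 9.78% were under 0.05, with 4.96% higher and 4.82% lower. Of the 608 genes at an unadjusted p under 0.05 after surgery, 587 were tested in old controls, and 69.5% of them had the same sign. The same-sign share over all genes tested was not computed. Positive values made up 50.1% of all genes tested after surgery and 49.1% in old controls. Slamf9 was at −0.48, Nfkbiz at −0.62, Sdc3 at −0.79, Lyz2 at −0.36 and P2ry12 at 0.35 in old controls. The interferon-stimulated list had a median of −0.57, with 12 of 17 genes lower at an unadjusted p under 0.05 (4.82% of all genes tested). The homeostatic list had a median of 0.27, with 21 of 23 genes positive and 17 of 23 higher at an unadjusted p under 0.05 (4.96% of all genes tested). All 11 genes called in old controls had the same sign in the old surgery animals, 9 of them at an unadjusted p under 0.05 (5.18% of all genes tested, with 2.28% higher and 2.89% lower). Gpr165, an orphan receptor, was at 0.82 ± 0.23 after surgery and at 1.22 in controls.

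The region difference of class II genes was then set against that in old controls, and no gene passed the test of the difference between treatments. H2-Ab1 averaged 11.4 ± 6.4 CPM in hippocampus and 28.8 ± 19.8 CPM in hemisphere after surgery (SD, n = 16 each). In old controls it averaged 18.1 ± 11.95 CPM in hippocampus and 20.4 ± 10.05 CPM in hemisphere (SD, n = 16 each; log2 −0.25 ± 0.30), lower in 11 of 16 animals. The region difference after surgery minus that in old controls was −0.99 ± 0.39 for H2-Ab1 (unadjusted p = 0.0146 and BH 0.892 in edgeR's quasi-likelihood test), −0.85 ± 0.43 for H2-Aa and −0.54 ± 0.32 for Cd74. H2-Ab1 was chosen on the surgery animals, whose values enter this difference, so its unadjusted p carries that choice. The difference between treatments was called for 0 of 13468 genes (percent called 0%; 723, or 5.37%, at an unadjusted p under 0.05, with 2.4% higher and 2.97% lower). At 6 h it was also called for 0 genes (percent called 0%; 1047, or 7.77%, at an unadjusted p under 0.05, with 3.9% higher and 3.88% lower), as at 48 h (percent called 0%; 325, or 2.41%, with 1.1% higher and 1.31% lower). The sum of the 3 class II genes and Cd74 stood at a median of 48.5% of the hemisphere level after surgery and 65.8% in old controls. In old controls it averaged 51.3 ± 29.4 CPM in hippocampus and 62.3 ± 27.6 CPM in hemisphere (SD, n = 16 each), lower in hippocampus in 10 of 16 animals. Class I genes were also summed, after the values were seen: H2-K1, H2-D1, H2-Q4, H2-Q6, H2-Q7, H2-T23 and the light chain B2m. This class I sum stood at a median of 81.7% of the hemisphere level after surgery and 83.6% in old controls. Among the 24 genes, Polr2a and Wdr26 had negative values after surgery and positive values in controls (0.49 and 0.32), and Eif3c had a positive value after surgery and a negative one in controls (−0.39). Their differences between treatments were −1.07 ± 0.23, −1.03 ± 0.30 and 1.046 ± 0.24, with BH of 0.591 to 0.892. These genes too were chosen on the surgery values that enter the differences.

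In young mice 0 genes were called, after surgery (11806 tested, percent called 0%; 420, or 3.56%, at an unadjusted p under 0.05, with 1.47% higher and 2.08% lower) or in controls (12249 tested, percent called 0%; 787, or 6.43%, with 2.83% higher and 3.59% lower). H2-Ab1 averaged 10.9 ± 6.94 CPM in hippocampus and 10.3 ± 3.61 CPM in hemisphere of young mice after surgery (SD, n = 8 each), and 7.41 ± 4.78 CPM in hippocampus and 9.97 ± 7.35 CPM in hemisphere of young controls (SD, n = 8 each). These levels were scaled within each set of animals. Of the 12 genes with lower values, 11 had the same sign after surgery in the young and 11 in young controls. In each set 4 of the 12 had that sign at an unadjusted p under 0.05 (2.08% and 3.59% of all genes tested were lower at that threshold). Of the 12 with higher values, 6 had the same sign after surgery and 4 in controls, with 0 under 0.05 in either set. Of the 608 genes at an unadjusted p under 0.05 in old surgery mice, those tested had the same sign in 56.4% of cases after surgery in the young and 54.6% in young controls. Nfkbiz was at −0.62 and −0.50 in young surgery and young control mice. The cytokine and NF-kB list had a median of −0.40 in young mice after surgery and −0.31 in young controls, and P2ry12 was at 0.06 and −0.08 there. Medians of the MHC list were −0.19 in young mice after surgery and −0.26 in young controls. Those of the interferon-stimulated list were −0.32 (9 genes tested) and −0.20 (13 genes tested).

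**Figure D5:**
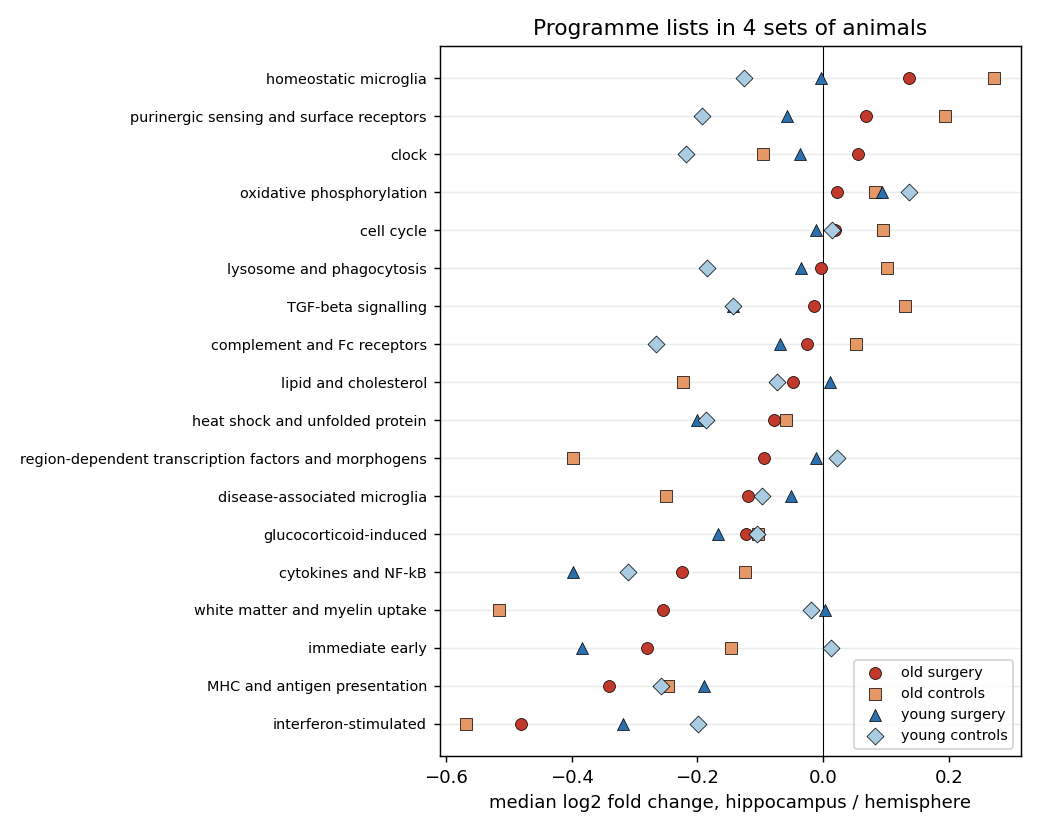
Median log2 fold change of hippocampus over hemisphere over the tested genes of 18 programme lists, in old surgery, old control, young surgery and young control animals. Interferon-stimulated (−0.48 and −0.57) and MHC genes (−0.34 and −0.25) are negative in old surgery and old control animals, and homeostatic genes are positive in both (0.14 and 0.27). In young surgery and young control animals, interferon-stimulated (−0.32 and −0.20) and MHC genes (−0.19 and −0.26) are negative too. Homeostatic genes are at −0.004 and −0.13 there.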

How the data were processed

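Microglia RNA was measured by Smart-seq2 in 96 libraries, 32 of them from old mice after surgery. The authors deposited estimated counts per Ensembl gene model in 4 tables, in whole numbers and with 1 column per library, per the file headers. The test had been planned for raw counts and was kept, since the values ran in steps of 1 in all but 3 of the 32 libraries. Per the submitters' processing notes, the build was mm10 and R 4.2.1 and DESeq2 1.36.0 were used. Which aligner and counter were run, and on which annotation, was not given in the sources used here. Symbols and coordinates came from GENCODE M21 on the same build, and 37 of 54532 identifiers had no match. All columns of per-library values were mapped, with 0 left unused.

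Regions were compared within animals with edgeR 4.0.16 in R 4.3.3: TMM scaling, filterByExpr at a minimum count of 10 on time and region groups, robust quasi-likelihood F-tests with the animal as a block, and Benjamini-Hochberg adjustment at 0.05 over all genes tested. Old controls and both young sets were fitted alone, and the difference between treatments was fitted over the 64 old libraries. Values in each group are TMM-scaled CPM, mean ± SD; log2 fold changes carry their standard error. Depth measures used an exact paired sign-flip test. The tests were tried on simulated data. The pairing comes from the library names, in which the 2 libraries of an animal share a sort number. Deviations from the group means correlated between an animal's libraries at a median of −0.00547 (range −0.108 to 0.225), against 0.000917 between animals, over 0.1 in 4 of 16 pairs. Separate mice stand behind the replicates by sort number; the labels say no more.

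Named genes are the 12 of each sign with the smallest p (called genes first) with mean log2 CPM from 4 upwards, without predicted, Rik and mitochondrial symbols, and a fixed set of 14 (P2ry12, Tmem119, Apoe, Cst7, Clec7a, Fkbp5, Tsc22d3, Ddit4, Ttr, Mrc1, H2-Aa, Ifit3, Spp1 and Malat1). Any other gene was named as a member of a list or after its values were seen. The comparison and the 18 programme and 17 marker lists were chosen with earlier results of these data known. Alternatives were RLE scaling, no filter, DESeq2 1.42.0, limma-voom (limma 3.58.1), no block, library sizes without the 15 largest gene models, subsets of animals and each animal left out. Values of 2 list members are not reported here.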

Additional observations from a re-analysis of the deposited data

Results flagged for a closer look

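A library whose gap to the rest of its group was larger than Dixon's limit was found in 16 of 160 groups of 7 or 9 libraries looked at. Chance alone flags about 1 in 20 groups. Of the 16 values, 3 came from 48 h hippocampus replicate 1: Lyz2 at 100.9 CPM, H2-Q7 at 31.1 CPM and Ifit3 at 22.0 CPM, each the highest of 9. In 6 h replicate 7, Nfkbiz was the lowest of 7 in both regions, at 7.70 CPM in hippocampus and 15.4 CPM in hemisphere. In hippocampus at 6 h, Sdc3 was high in replicate 4 (15.3 CPM) and Rbbp4 low in replicate 5 (5.01 CPM), and replicate 5 is a library with uneven low counts. In hemisphere at 6 h, H2-D1 was low in replicate 3 (54.9 CPM), P2ry12 low in replicate 5 (204 CPM), Ccl6 high in replicate 1 (31.9 CPM), and Vps4b and Eif3c low in replicate 6 (4.74 and 10.5 CPM), a library with uneven low counts. At 48 h, Sf3a1 was high in hippocampus replicate 8 (50.5 CPM), and in hemisphere Cst7 was low in replicate 8 (0.517 CPM) and Ddit4 high in replicate 1 (3.48 CPM). The choroid plexus marker sum reached 1320.1 CPM in 48 h hippocampus replicate 6, against 8.61 to 105.4 CPM in the other 8 libraries of that group.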

How the results depend on the processing

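The main count of 1 called gene became 133 without a filter on low counts (52 higher and 81 lower, 47536 genes tested), 13 with DESeq2 (1 higher and 12 lower) and 6 with limma-voom, and stayed at 1 with RLE scaling and with library sizes that leave out the 15 largest gene models. It was 0 without the replicate block (H2-Ab1 −1.30, BH 0.112), 0 without the 2 animals with uneven low counts (H2-Ab1 −1.23, BH 0.0918), 0 in the 6 animals within the sort numbers of the young (−1.26, BH 0.463), and, in subsets chosen after seeing the data, 0 without the 2 animals high in B cell markers and 0 without the 4 high in choroid plexus markers. The cause was not tested. Leaving out 1 animal gave 0 to 4 calls: 4 without 6 h replicate 3 (H2-Ab1, H2-Aa, Sdc3 and H2-D1), 4 without 48 h replicate 1 and 2 without 48 h replicate 9. The 12 lower calls of DESeq2 include H2-Ab1, H2-Aa, H2-Eb1, Cd74, H2-D1, H2-Q6, Sdc3, Nfkbiz, Oas1a and Slfn2.

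At 6 h the count of 0 became 138 without a filter, 7 with DESeq2 and 1 without the animals with uneven low counts. At 48 h it became 51 without a filter, 3 with DESeq2 and 0 to 1 leaving out 1 animal. For 48 h minus 6 h it became 56, 2 and 1 with no filter, DESeq2 and limma-voom, and 1 without the replicate block. For surgery minus controls it became 83 without a filter and 1 without the block. Of single genes, 5 changed sign, none of them called: Apoe (0.37 within the sort numbers of the young, 0.0465 without the animals high in B cell markers, and −0.136 to 0.0624 leaving out 1 animal, above 0 in 4 of 16 cases), Tsc22d3 (0.00062 without the block, −0.116 to 0.0170 leaving out 1 animal), and, within the sort numbers of the young, Ddit4 (−0.0190), Spp1 (0.64) and Malat1 (0.0132). The medians of the 3 lists recomputed under these settings kept their sign. At 469723 to 1406165 counts outside the largest gene models, genes at a few CPM rest on few reads.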

Other observations

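Genes of microglia that take up myelin had negative values in both sets of old mice, with few members above the filter. After surgery 6 of 15 list members were tested and had a median log2 difference of −0.26, with 0 at an unadjusted p under 0.05. In old controls 7 were tested, with a median of −0.52 and 4 under 0.05, where 4.82% of all genes tested there were lower. Itgax, an integrin chain of such cells, was at −0.63 ± 0.42 after surgery (BH 0.988) and −0.97 ± 0.26 in old controls (BH 0.212). The myelin transcript Mbp was at −0.25 ± 0.21 after surgery and −0.53 ± 0.24 in old controls.

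Ttr, the thyroid hormone carrier of the choroid plexus, was higher in hippocampus in 8 of 8 young mice after surgery, at 178 ± 196 CPM in hippocampus and 4.47 ± 6.69 CPM in hemisphere (SD, n = 8 each). It was higher in 8 of 8 young controls as well, at 332 ± 405 CPM in hippocampus and 65.5 ± 100.4 CPM in hemisphere (SD, n = 8 each). Its BH in edgeR's quasi-likelihood test was 0.94 in young surgery and 0.332 in young control mice. In old mice after surgery it was higher in 9 of 16.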
